A study of Mus musculus with 12 samples.

Results

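The genes of the interleukin-1 (IL-1) family examined here were 10 in number, out of 55487 in the count table: the ligand genes Il1a, Il1b, Il33 and Il18, the antagonist gene Il1rn, the receptor genes Il1r1, Il1rl1 and Il1rap, the protease gene Casp1 and the adaptor gene Myd88. They were looked up by symbol, and the set was chosen from measured values, because Il1a was among the largest rises with A1. RNA was sequenced from mouse mesenchymal stromal cells (MSCs) in 3 groups of 4 samples. The MSCs came from the bone marrow of wild-type (WT) C57BL/6 mice and were grown as primary cells in serum-containing medium, after expansion over several passages and freezing. Control samples were untreated. A1-treated samples received 50 μM of A1, a variant of the Accum molecule that the study's text writes as cholic acid-hnRNPA1, for 6 h. A1 + OVA-treated samples received 50 μM of A1 together with 1 mg/mL of ovalbumin (OVA, the albumin of chicken egg white) for 6 h. There was no group given ovalbumin alone, and the protocol text of the A1 + OVA medium also mentions insulin without a dose, so that what each of these adds cannot be told apart. The labels do not say whether the 4 samples of a group were separate cultures or animals, so that p-values measure the spread between these samples, which may be technical.

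IL-1 alpha, IL-1 beta, IL-33 and IL-18 are cytokines that act on receptors of a common type. A ligand-binding chain (IL1R1 for IL-1, ST2 for IL-33) pairs with the accessory chain IL1RAP, and the assembled receptor recruits the adaptor MYD88 and IRAK kinases to switch on NF-kB and MAP kinase signalling. IL-1 beta and IL-18 are made as inactive precursors that caspase-1 cuts inside inflammasomes, whereas the IL-1 alpha precursor is already active and is cut by calpain, and the antagonist IL1RN occupies IL1R1 without signalling. Stromal cells are known both as responders to IL-1 and as producers of the antagonist.

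The samples held between 13702348 and 16881995 counts each, and the A1-treated samples were the shallowest, with 13702348 to 14347870. Levels are given in CPM, the counts scaled to a common library total, after TMM scaling, and differences as log2 fold changes from edgeR's quasi-likelihood test, called at an adjusted p under 0.05 over 11314 tested genes. Of 10 MSC marker genes, 8 passed the filter on low counts, and Cxcl12 alone stood at 3909.8 ± 130.0 CPM (SD, n = 4) in control samples. Thy1, which encodes CD90, and Lepr did not pass the filter, with at most 17 and 16 counts in a sample. The summed level of the MSC markers was 4850.0 to 5085 CPM in control, 2579 to 2690.0 CPM in A1-treated and 2670.2 to 2796 CPM in A1 + OVA-treated samples. Cxcl12 held most of this sum and fell to 1514 ± 63.6 CPM with A1. The sum of the 9 others, a sum chosen after the data were seen, was 1043 to 1111 CPM in control, 1103 to 1135 CPM in A1-treated and 1016 to 1028 CPM in A1 + OVA-treated samples. With A1, 4 of the 8 were lower (Cxcl12, Pdgfra, Vcam1 and Ly6a) and Cd44 was higher, beside 31.1% of all tested genes lower and 31.7% higher. In these bulk samples, fewer cells of a type and less RNA per cell cannot be told apart.

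Macrophages and keratinocytes are common sources of IL-1 RNA, and some of their markers were at or near 0 while others passed the filter on low counts. Of 12 macrophage and monocyte markers, 2 passed the filter, and C1qa, C1qb and Tyrobp had 0 counts in all 12 samples. The 2 that passed were Cd68, at 1.52, 1.41 and 1.77 CPM in control, A1-treated and A1 + OVA-treated samples, and Mrc1. Among the markers below the filter, the highest count in any sample was 14 for Csf1r, 7 for Lyz2 and 4 for Ptprc. It was 3 for Cx3cr1, 2 for Adgre1 and 1 for each of Itgam and Fcgr1. The summed level of the 12 markers was 3.26 to 4.26 CPM in control, 4.50 to 5.34 CPM in A1-treated and 3.93 to 5.42 CPM in A1 + OVA-treated samples. The mannose receptor gene Mrc1 rose from 1.48 to 3.01 CPM with A1 (log2 fold change 1.01, adjusted p 4.71e-05 by edgeR), and Cd68 was not called. At 1.94 CPM with A1 + OVA, Mrc1 was not called against control (0.38, adjusted p 0.0983 by edgeR). It was lower than with A1 (-0.64, adjusted p 0.0177 by edgeR). Lyz2, not tested, went the other way with A1, from 21 summed counts in control to 6, with overlapping samples. With A1 + OVA, Lyz2 summed to 13 counts. Krt5, Krt14 and Dsg3 never exceeded 1 count, and none of the 6 endothelial markers passed the filter. Of the 6 keratinocyte markers, Krt10 (2.49 CPM in control and 2.44 CPM in A1-treated samples, not called) and Trp63 passed the filter, and their list summed to 37.0 to 39.2 CPM in control, 12.6 to 14.2 CPM in A1-treated and 15.5 to 17.6 CPM in A1 + OVA-treated samples. Trp63 fell from 35.5 ± 1.14 CPM with A1 (log2 fold change -1.69, adjusted p 5.57e-15 by edgeR). Of 8 mast cell and basophil markers, only Mcpt8 passed the filter. It rose from 2.16 to 3.69 CPM with A1 (log2 fold change 0.78, adjusted p 0.000688 by edgeR). With A1 + OVA it was not called (0.34, adjusted p 0.121 by edgeR). Kit, not tested, went the other way, from 0.753 CPM in control to 0.201 CPM in A1-treated samples, with overlapping samples. Cpa3 summed to 16 counts in control, with 15 in its highest sample, and to 0 with A1. Ms4a2, Mcpt4 and Hdc stayed at or below 2 counts, and Fcer1a and Tpsb2 had 0 counts in every sample. What part these marker changes had in the results was not tested.

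The promoters of the IL-1 genes are shown because the start sites of Il1a and Il1b, 2 neighbouring ligand genes, carry a similar TATA element while the RNA of Il1a, and not that of Il1b, passed the filter on low counts, and because Il1rl1 and Casp1 had the largest changes in each direction among the other members. The sequences are RefSeq's, on build GRCm38.p6, run 5′ to 3′ on the strand of the gene from 250 bases before the start site to 50 bases after it, and carry in capitals the matches to 5 motifs. The AP-1 motif was searched as TGANTCA and the cyclic AMP response element (CRE) as TGACGTCA. The motif of C/EBP factors was searched as TTGCNNAA, and the TATA element as TATAAA. The pattern of NF-kB sites, called kB here, was GGG followed by 5 free letters and CC. Each was searched on both strands. Il1a lies on chromosome 2, minus strand, at chr2:129309923-129310222, and Il1b on the same strand at chr2:129371090-129371389. Il1rl1 has a pair of promoters on the plus strand of chromosome 1, at chr1:40429320-40429619 and chr1:40439379-40439678. Casp1 is on chromosome 9, plus strand, at chr9:5298267-5298566.
Il1a: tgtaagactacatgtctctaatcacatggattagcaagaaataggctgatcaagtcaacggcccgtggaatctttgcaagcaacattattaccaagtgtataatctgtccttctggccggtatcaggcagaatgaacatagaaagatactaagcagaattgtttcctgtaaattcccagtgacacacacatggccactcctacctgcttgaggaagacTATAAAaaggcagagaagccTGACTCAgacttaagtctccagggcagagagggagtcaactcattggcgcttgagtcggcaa
Il1b: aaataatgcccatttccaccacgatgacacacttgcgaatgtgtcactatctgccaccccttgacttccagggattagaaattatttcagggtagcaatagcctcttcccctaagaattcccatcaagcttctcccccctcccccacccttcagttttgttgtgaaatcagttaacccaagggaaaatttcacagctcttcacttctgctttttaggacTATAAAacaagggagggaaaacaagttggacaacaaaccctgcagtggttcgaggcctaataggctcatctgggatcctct
Il1rl1, first promoter: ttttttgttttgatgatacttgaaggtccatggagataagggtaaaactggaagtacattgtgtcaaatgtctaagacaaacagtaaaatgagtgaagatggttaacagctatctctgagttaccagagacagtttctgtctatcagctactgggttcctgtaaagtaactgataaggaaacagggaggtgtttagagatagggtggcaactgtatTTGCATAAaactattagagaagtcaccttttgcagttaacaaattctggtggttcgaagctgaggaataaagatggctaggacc
Il1rl1, second promoter: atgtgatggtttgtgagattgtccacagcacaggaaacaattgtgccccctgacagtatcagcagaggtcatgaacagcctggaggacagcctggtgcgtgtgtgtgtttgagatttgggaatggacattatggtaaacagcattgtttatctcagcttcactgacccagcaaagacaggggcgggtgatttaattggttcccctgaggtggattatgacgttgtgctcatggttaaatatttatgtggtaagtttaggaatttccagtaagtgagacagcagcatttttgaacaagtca
Casp1: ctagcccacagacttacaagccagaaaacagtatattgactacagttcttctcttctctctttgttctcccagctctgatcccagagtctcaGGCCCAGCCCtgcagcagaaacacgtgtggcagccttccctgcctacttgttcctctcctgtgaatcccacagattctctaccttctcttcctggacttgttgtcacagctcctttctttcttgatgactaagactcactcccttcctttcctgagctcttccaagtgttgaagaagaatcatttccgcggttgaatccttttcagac
In the Il1a promoter the TATA match began 32 bases before the start site and an AP-1 match, TGACTCA, 12 bases before it. In the Il1b promoter the TATA match began 31 bases before the start site, and no other match was present. All 10 genes had a promoter in the table, 15 promoters in all. AP-1 matches were present in 2 of the 15, those of Il1a and of 1 Il1rn promoter, against 7.81% of 32851 promoters. The kB pattern was in 6 of the 15 (50.8% of all promoters), C/EBP in 3 (10.8%), TATA in 7 (13.6%) and CRE in 0 (1.79%). The 6 with kB belong to 4 genes, and 2 of the Il1rn promoters overlap and share a kB match. TATA matches began 29 to 32 bases before the start site only in Il1a, Il1b and 1 Il33 promoter. The others lay between 203 bases before a start site and 14 bases after it. The first Il1rl1 promoter held a C/EBP match and the second held none of the 5 motifs, and Casp1 held a kB match. The matches describe these letters in this window.

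Il1a (ENSMUSG00000027399, chromosome 2 from 129299610 to 129309972, minus strand) encodes IL-1 alpha. In control samples it had 3, 6, 3 and 5 counts, which is 0.186, 0.355, 0.186 and 0.314 CPM. In A1-treated samples it had 44, 51, 39 and 52 counts, or 3.18, 3.89, 2.98 and 3.78 CPM. In A1 + OVA-treated samples it had 49, 51, 47 and 43 counts, or 3.55, 3.23, 3.10 and 2.65 CPM. All 8 treated samples were above all 4 control samples, and the 2 treated groups overlapped. Control samples were close to the limit that 3 counts set in a library (0.177 to 0.188 CPM), so that Il1a passed the filter on low counts only through the treated groups. Mean levels were 0.260 ± 0.0873, 3.46 ± 0.447 and 3.13 ± 0.374 CPM (SD, n = 4) in control, A1-treated and A1 + OVA-treated samples. The ratio of the summed counts, 186 with A1 against 17 in control after scaling by library size, was 13.3, with an exact 95% interval of 8.06 to 23.2. For A1 + OVA against control it was 12 (7.27 to 20.9). These intervals cover counting error only. The fitted log2 fold changes were 3.69 with A1 and 3.54 with A1 + OVA, and the first was rank 11 of 11314 from the highest. Since Il1a was chosen on this rise, these values are a description and carry no test. The comparison of A1 + OVA with A1 was not used to choose the gene. It shares the A1-treated samples with the rise that was used, so that its test is not independent of the choice. There the log2 fold change was -0.15 (SE 0.15, 95% interval -0.48 to 0.19, adjusted p 0.555 by edgeR's quasi-likelihood test). This interval limits the size of a difference between the treated groups and does not show that they were alike.

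Il1b (ENSMUSG00000027398), which encodes IL-1 beta and lies 54.6 kb from Il1a, had 7 counts over all 12 samples. Control samples had 0, 0, 0 and 4 counts, A1-treated samples 0, 0, 1 and 1, and A1 + OVA-treated samples 0, 0, 1 and 0. Il33 (ENSMUSG00000024810, chromosome 19), the gene of the ligand of ST2, had 4 counts over all samples, namely 2, 0, 0 and 0 in control, 0, 1, 0 and 0 with A1, and 0, 1, 0 and 0 with A1 + OVA. Neither gene passed the filter, and 3 counts in a library correspond to 0.177 to 0.229 CPM. For Il1b, the ratio of the summed counts was 0.606 for A1 over control (exact 95% interval 0.0548 to 4.23) and 0.267 for A1 + OVA over control (0.00543 to 2.70), so that a change within these bounds was not detectable at this depth. For Il33, the interval for A1 over control ran from 0.0103 to 11.6. The 5 other ligand genes of the family (Il36a, Il36b, Il36g, Il36rn and Il1f10) did not pass the filter either, and together they reached at most 0.532 CPM in a sample.

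Il18 (ENSMUSG00000039217, chromosome 9) encodes IL-18, an inducer of interferon gamma. It had 53, 32, 45 and 40 counts in control samples (3.28, 1.89, 2.78 and 2.51 CPM). It had 11, 15, 14 and 20 counts in A1-treated samples (0.795, 1.15, 1.07 and 1.45 CPM). It had 23, 37, 28 and 37 counts in A1 + OVA-treated samples (1.67, 2.34, 1.85 and 2.28 CPM). Every A1-treated sample was below every control sample and below every A1 + OVA-treated sample, and the control and A1 + OVA-treated samples overlapped. Il18 fell with A1 (log2 fold change -1.22, SE 0.22, adjusted p 6.43e-05 by edgeR), from 2.62 ± 0.579 to 1.12 ± 0.270 CPM (SD, n = 4). With A1 + OVA the level was 2.03 ± 0.329 CPM, and the difference from control was -0.35 (95% interval -0.77 to 0.08, adjusted p 0.118 by edgeR). This difference passed the threshold when control replicate 2 was left out, with a log2 fold change of -0.48. Il18 was higher with A1 + OVA than with A1 (log2 fold change 0.87, SE 0.24, adjusted p 0.0176 by edgeR), and this call was lost when A1 replicate 1, A1 + OVA replicate 2 or A1 + OVA replicate 4 was left out, with log2 fold changes of 0.73, 0.80 and 0.81.

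**Figure D1:**
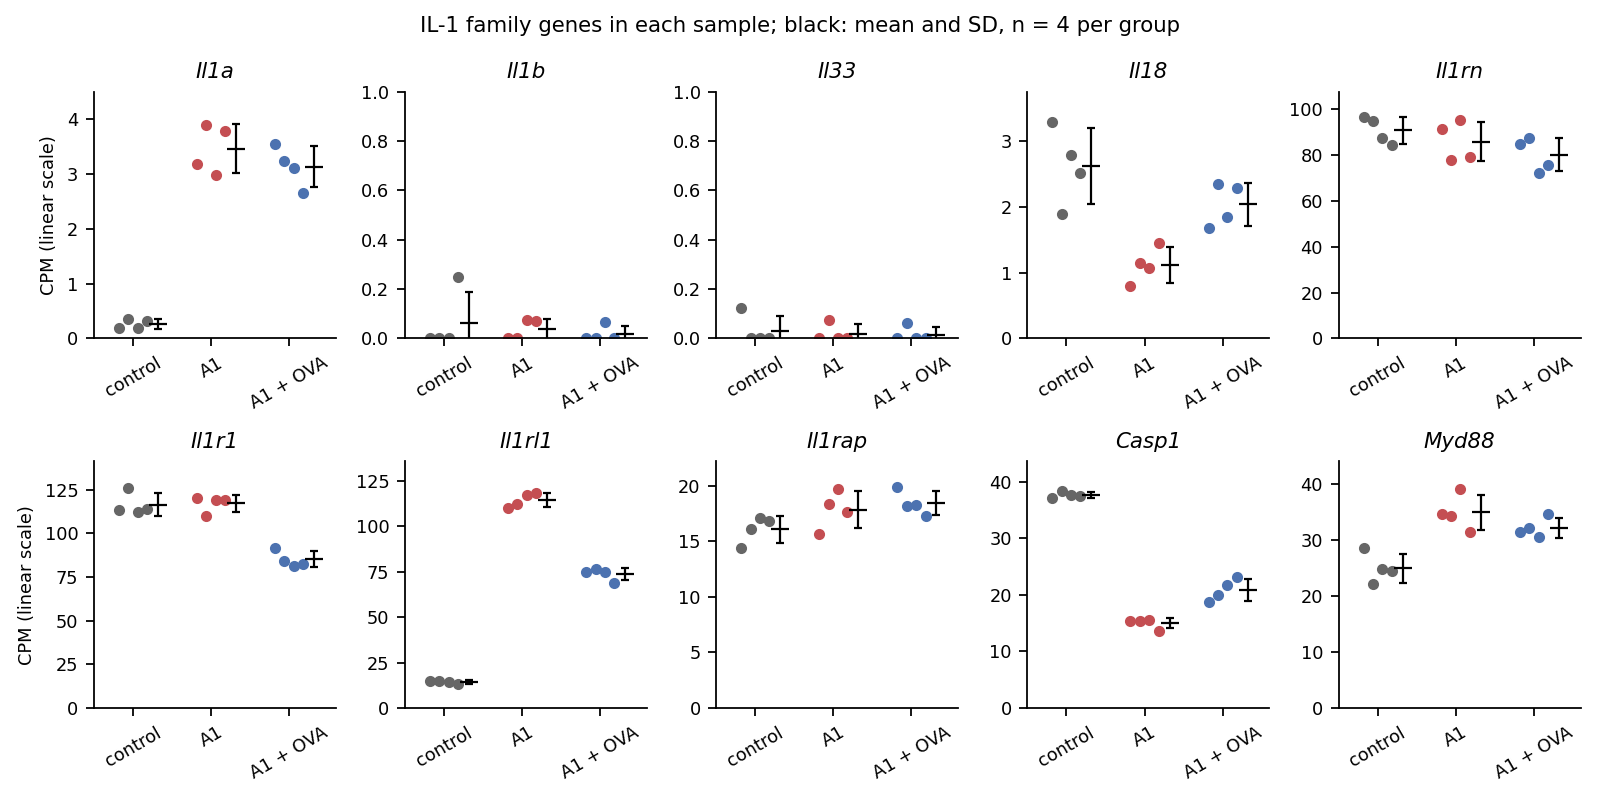
Level of each of the 10 genes in each sample, in CPM on a linear scale that starts at 0, by group (grey control, red A1, blue A1 + OVA). Each point is a sample and the black mark is the mean with its SD (n = 4). Il1a was 0.186 to 0.355 CPM in control samples and 2.65 to 3.89 CPM in treated samples, Il1rl1 was 13.1 to 15.1 CPM in control samples and 68.7 to 118 CPM in treated samples, and Il1b and Il33 stayed near 0.

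Il1rn (ENSMUSG00000026981, chromosome 2) encodes the IL-1 receptor antagonist, and its counts sum the secreted and the intracellular forms. It stood at 96.5, 95, 87.4 and 84.5 CPM in control samples. It stood at 91.3, 77.8, 95.2 and 79.3 CPM in A1-treated and at 85.0, 87.4, 72.3 and 75.8 CPM in A1 + OVA-treated samples. The 3 groups overlapped. Il1rn was not called with A1 (log2 fold change -0.08, 95% interval -0.23 to 0.07, adjusted p 0.303 by edgeR). With A1 + OVA it was called lower by a small amount (-0.18, SE 0.07, adjusted p 0.0245 by edgeR), a call that was lost when control replicate 1, control replicate 2, A1 + OVA replicate 3 or A1 + OVA replicate 4 was left out, with log2 fold changes of -0.15, -0.16, -0.13 and -0.15. The ratio of antagonist to IL-1 alpha RNA per length was 95.6 to 185 in control samples, 7.13 to 11.4 in A1-treated and 8.31 to 10.2 in A1 + OVA-treated samples. This ratio follows from the rise of Il1a on which the set was chosen, and it is a description of RNA, not of protein.

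Il1rl1 (ENSMUSG00000026069, chromosome 1 from 40429570 to 40465415, plus strand) encodes ST2, the receptor of IL-33, and its counts sum the membrane-bound and the soluble decoy form. It had 238, 256, 234 and 209 counts in control samples, or 14.7, 15.1, 14.5 and 13.1 CPM. In A1-treated samples it had 1523, 1473, 1534 and 1624 counts, or 110.1, 112, 117 and 118 CPM. In A1 + OVA-treated samples it had 1033, 1211, 1132 and 1114 counts, or 74.9, 76.7, 74.7 and 68.7 CPM. The 3 groups were separate, with the A1 + OVA-treated samples between the others. Il1rl1 rose 7.97-fold with A1 (log2 fold change 2.99, SE 0.05, adjusted p 1.24e-20 by edgeR), rank 25 of 11314 from the highest, and 5.13-fold with A1 + OVA (2.36, SE 0.06, adjusted p 1.34e-18 by edgeR). It was lower with A1 + OVA than with A1 (-0.63, SE 0.05, adjusted p 9.16e-09 by edgeR). The RNA of its ligand gene Il33 did not exceed 2 counts in any sample.

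Il1r1 (ENSMUSG00000026072, chromosome 1), which encodes the signalling receptor of IL-1 alpha and IL-1 beta, was among the most abundant members. It stood at 113, 126, 112 and 114 CPM in control samples and at 120.3, 109.7, 119 and 119 CPM in A1-treated samples. In A1 + OVA-treated samples it stood at 91.7, 84.2, 81.5 and 82.6 CPM, below all 8 other samples, whereas the control and A1-treated samples overlapped. The difference between A1 and control was 0.01 on the log2 scale (95% interval -0.10 to 0.11, adjusted p 0.891 by edgeR). Il1r1 fell with A1 + OVA, both against control (-0.45, SE 0.05, adjusted p 4.76e-08 by edgeR) and against A1 (-0.46, SE 0.05, adjusted p 2.01e-06 by edgeR).

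Il1rap (ENSMUSG00000022514, chromosome 16), which encodes the accessory chain shared by IL1R1 and ST2, varied little. It stood at 14.4, 16.1, 17.1 and 16.8 CPM in control samples, at 15.7, 18.4, 19.7 and 17.6 CPM with A1 and at 19.9, 18.2, 18.3 and 17.3 CPM with A1 + OVA. The A1-treated samples overlapped both other groups, and the lowest A1 + OVA-treated sample lay just above the highest control sample. The log2 fold change was 0.15 with A1 (adjusted p 0.112 by edgeR), which passed the threshold when A1 replicate 1 was left out (0.20). With A1 + OVA it was 0.19 (SE 0.08, adjusted p 0.0384 by edgeR). That call was lost under 9 of its 20 alternative settings, DESeq2 and upper-quartile normalization among them, with log2 fold changes of 0.14 to 0.22 over all 20.

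Casp1 (ENSMUSG00000025888, chromosome 9 from 5298517 to 5307265, plus strand) encodes caspase-1, the protease of inflammasomes. It had 599, 649, 609 and 596 counts in control samples (37.1, 38.4, 37.7 and 37.4 CPM). It had 213, 202, 204 and 189 counts in A1-treated samples (15.4, 15.4, 15.6 and 13.7 CPM). It had 259, 314, 328 and 377 counts in A1 + OVA-treated samples (18.8, 19.9, 21.7 and 23.2 CPM). The 3 groups were separate, with control samples highest and A1-treated samples lowest. Casp1 fell with A1 (log2 fold change -1.32, SE 0.07, adjusted p 2.49e-13 by edgeR) and with A1 + OVA (-0.85, SE 0.06, adjusted p 1.56e-10 by edgeR). It was higher with A1 + OVA than with A1 (0.48, SE 0.07, adjusted p 0.000167 by edgeR).

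Myd88 (ENSMUSG00000032508, chromosome 9), the adaptor of IL-1 family and most Toll-like receptors, stood at 28.5, 22.1, 24.8 and 24.4 CPM in control samples. It stood at 34.7, 34.3, 39.2 and 31.5 CPM with A1 and at 31.4, 32.2, 30.6 and 34.7 CPM with A1 + OVA. All 8 treated samples were above the control samples, and the treated groups overlapped. Myd88 rose with A1 (0.49, SE 0.07, adjusted p 8.96e-06 by edgeR) and with A1 + OVA (0.37, SE 0.07, adjusted p 0.000215 by edgeR), and the difference between the treated groups was -0.11 (95% interval -0.28 to 0.05, adjusted p 0.333 by edgeR). Acaa1a overlaps Myd88 on the opposite strand with at most 322 counts in a sample, and reads were counted with a strand-specific option.

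**Figure D2:**
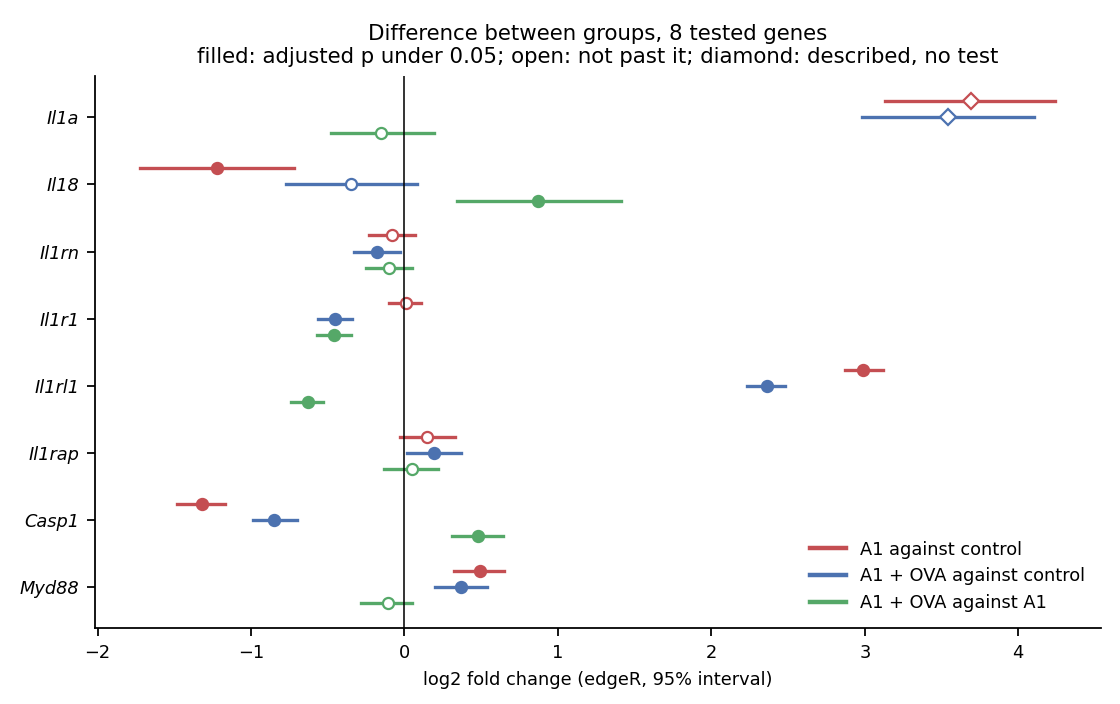
Log2 fold change of the 8 tested genes in the 3 comparisons, with 95% intervals from edgeR (red A1 against control, blue A1 + OVA against control, green A1 + OVA against A1). Filled circles passed an adjusted p of 0.05, open circles did not, and the open diamonds of Il1a are a description. Il1rl1 was at 2.99, 2.36 and -0.63 and Casp1 at -1.32, -0.85 and 0.48 in these comparisons.

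Of the 10 members, 8 were tested. With A1, 3 were higher (Il1a, Il1rl1 and Myd88) and 2 lower (Casp1 and Il18), while 31.7% of all 11314 tested genes were called higher and 31.1% lower. The rule used this comparison, so that nothing is read from the count, and the median log2 fold change of the members was 0.08 beside -0.002 for all tested genes. With A1 + OVA against the same control samples, 4 were higher (Il1a, Il1rl1, Myd88 and Il1rap) and 3 lower (Casp1, Il1r1 and Il1rn), beside 29.7% and 27.9% of all tested genes. Il1a stands in this count although its values against these control samples carry no test, so that nothing is read from this count either. In A1 + OVA against A1, 2 were higher (Il18 and Casp1) and 2 lower (Il1rl1 and Il1r1), beside 6.05% and 6.81% of all tested genes. The count of 2 higher members became 1 when A1 replicate 1, A1 + OVA replicate 2 or A1 + OVA replicate 4 was left out, because the call of Il18 was lost.

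Levels of different genes were compared per length, as RPKM over the summed exon length of each gene. In control samples the order was Casp1 (25.1 ± 0.37 RPKM; SD, n = 4), Il1r1 (18.3 ± 1.08), Il1rn (16.4 ± 1.06), Myd88 (9.68 ± 1.02), Il18 (2.54 ± 0.562), Il1rl1 (2.08 ± 0.128), Il1rap (1.42 ± 0.109) and Il1a (0.132 ± 0.0442). Only the samples of Il18 and Il1rl1 overlapped among neighbours in this order. With A1, Il1r1 led with 18.4 ± 0.762 RPKM, followed by Il1rl1 with 16.6 ± 0.541, Il1rn, Myd88 and Casp1. The samples of Il1rl1, Il1rn and Myd88 overlapped in this order, and Casp1 stood apart at 10.0 ± 0.584 RPKM. Il1a, Il1rap and Il18 closed the order with overlapping samples, at 1.75 ± 0.226, 1.57 ± 0.148 and 1.08 ± 0.262 RPKM. With A1 + OVA, Il1rn, Casp1, Il1r1 and Myd88 overlapped in this order between 14.5 and 12.5 RPKM, Il1rl1 stood apart at 10.7 ± 0.508 RPKM, and Il18, Il1rap and Il1a overlapped between 1.97 and 1.59 RPKM. Il1r1 RNA per length was 8.34 to 9.39 times that of Il1rl1 in control samples and 1.06 to 1.18 times with A1. The RPKM of Il1rl1 was 1.29 to 1.69 times that of the accessory chain gene Il1rap in control samples and 9.80 to 11.6 times with A1.

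**Figure D3:**
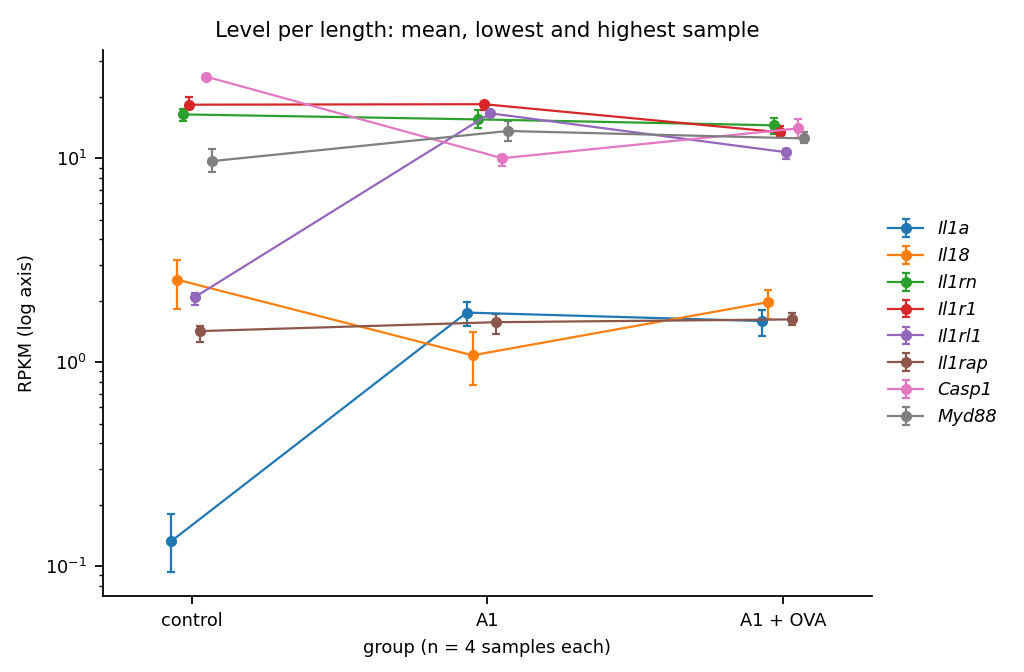
Level per length of the 8 tested genes by group, in RPKM on a log axis, with the mean of 4 samples and bars from the lowest to the highest sample. Il1a and Il1rl1 climb from 0.132 and 2.08 RPKM in control samples to 1.75 and 16.6 RPKM with A1, and Casp1 drops from 25.1 to 10.0 RPKM.

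Other genes of the pathway were described from lists. Where 5 or fewer genes of a list were called in a direction, they were named after their values were seen. Of 8 other receptor and binding protein genes, 2 passed the filter. Il18rap, the gene of the accessory chain of the IL-18 receptor, rose from 10.6 ± 1.41 to 25.6 ± 0.977 CPM with A1 (log2 fold change 1.28, SE 0.09, adjusted p 4.8e-11 by edgeR). It reached 21.2 ± 2.18 CPM with A1 + OVA (1.00, adjusted p 3.47e-09 by edgeR). Il18bp, the gene of the IL-18 binding protein, was at 2.42 CPM in control and 2.57 CPM in A1-treated samples and was not called. The gene of the ligand-binding chain, Il18r1, reached 3 counts in its highest sample, and the decoy receptor gene Il1r2 reached 1.

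Of 13 inflammasome and pyroptosis genes, 6 passed the filter, and with A1 4 were higher and 1 lower, beside 31.7% and 31.1% of all tested genes. Casp4, the gene of the non-canonical inflammasome caspase, fell from 21.3 ± 1.57 to 9.07 ± 0.205 CPM (-1.23, adjusted p 5.92e-12 by edgeR). Ninj1, which encodes a mediator of membrane rupture, rose from 10.5 to 15.8 CPM (0.59, adjusted p 1.54e-06 by edgeR), and Gsdme, a gasdermin gene, rose from 17.9 to 25.7 CPM (0.52, adjusted p 1.09e-05 by edgeR). Casp8 and Nek7 rose by 0.13 and 0.10 on the log2 scale. With A1 + OVA against control, Ninj1 was higher (0.45, adjusted p 4.9e-05 by edgeR) and Casp4 lower (-0.85, adjusted p 9.68e-10 by edgeR), and 4 were not called, among them Gsdme (0.19, adjusted p 0.0521), Casp8 (0.08, adjusted p 0.0716) and Nek7 (-0.06, adjusted p 0.189). The shares of all tested genes were 29.7% higher and 27.9% lower. The adaptor gene Pycard had 1 count over all samples, Nlrp3 at most 5 in a sample and Gsdmd at most 11. With A1 + OVA, Casp4 was at 11.8 CPM and was higher than with A1 (0.38, adjusted p 0.00462 by edgeR), while Gsdme and Nek7 were lower than with A1, with log2 fold changes of -0.33 and -0.16. In the same comparison Casp1 and Il18 had differences of 0.48 and 0.87.

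All 7 genes of IL-1 alpha processing and release were tested. With A1, Capn2, a calpain subunit gene, rose from 559 to 629.7 CPM (0.17, adjusted p 0.000182 by edgeR), Cast, the gene of the calpain inhibitor, fell from 352 to 310.3 CPM (-0.18, adjusted p 0.000331 by edgeR), and Anxa2 rose by 0.27, beside 31.7% of all tested genes higher and 31.1% lower. In A1 + OVA against control, Capn2 and Anxa2 were again higher, Cast lower, and S100a13 fell by 0.13 on the log2 scale. The shares of all tested genes were 29.7% higher and 27.9% lower. Between A1 + OVA and A1, 0 of the 7 were called by edgeR and 0 by DESeq2, and 2 (Capn1 and Anxa2) had an unadjusted p under 0.05. There edgeR called only 6.05% of all tested genes higher and 6.81% lower, so that nothing is read from the 0.

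Of 20 genes of IL-1 receptor signalling, 19 were tested, 6 of them higher and 5 lower with A1, the median of their log2 fold changes being 0.05 beside -0.002 for all tested genes. Of all tested genes, 31.7% were higher and 31.1% lower. Irak3, which encodes an inhibitory IRAK kinase, fell from 4.63 ± 0.529 to 2.51 ± 0.173 CPM (-0.88, adjusted p 0.000132 by edgeR). The Pellino ubiquitin ligase genes Peli3 and Peli1 fell by 0.70 and 0.41 on the log2 scale, and Peli2 and Ikbkg fell by 0.38 and 0.25. The 6 higher genes rose by at most 0.31. With A1 + OVA against control, 6 were higher and 4 lower (Irak3, Peli1, Peli2 and Ikbkg), beside 29.7% and 27.9% of all tested genes. Against A1, 2 were higher (Tollip and Ikbkg) and 2 lower (Peli2 and Ube2n), beside 6.05% and 6.81%.

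Of 24 genes known to rise with IL-1 in stromal cells, 17 were tested, and 6 were higher and 9 lower with A1, the median of their log2 fold changes being -0.13. The shares among all tested genes were 31.7% and 31.1%. Cxcl1, a neutrophil chemokine gene, fell from 199 ± 10.1 to 39.3 ± 3.01 CPM (-2.34, SE 0.05, adjusted p 3.22e-19 by edgeR). Cxcl5, another such chemokine gene, had 85 counts over the control samples and 1 count over the A1-treated samples, a ratio of 0.0143 (exact 95% interval 0.000357 to 0.0816). Ptgs2, which encodes cyclooxygenase-2, rose from 43.4 ± 4.48 to 150.4 ± 16.6 CPM (1.79, SE 0.09, adjusted p 2.06e-13 by edgeR). Against control, A1 + OVA gave 4 higher genes (Lif, Ptgs2, Ptges and Lcn2), beside 29.7% of all tested genes. It gave 5 lower genes (Cxcl1, Cxcl5, Il6, Nfkbia and Vcam1), beside 27.9%. Against A1, A1 + OVA gave 5 higher (Cxcl1, Ccl2, Ccl7, Ptgs2 and Zc3h12a) and 1 lower, the collagenase gene Mmp13, which went from 93.1 to 40.7 CPM (-1.20, adjusted p 2.66e-10 by edgeR), beside 6.05% and 6.81% of all tested genes.

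**Figure D4:**
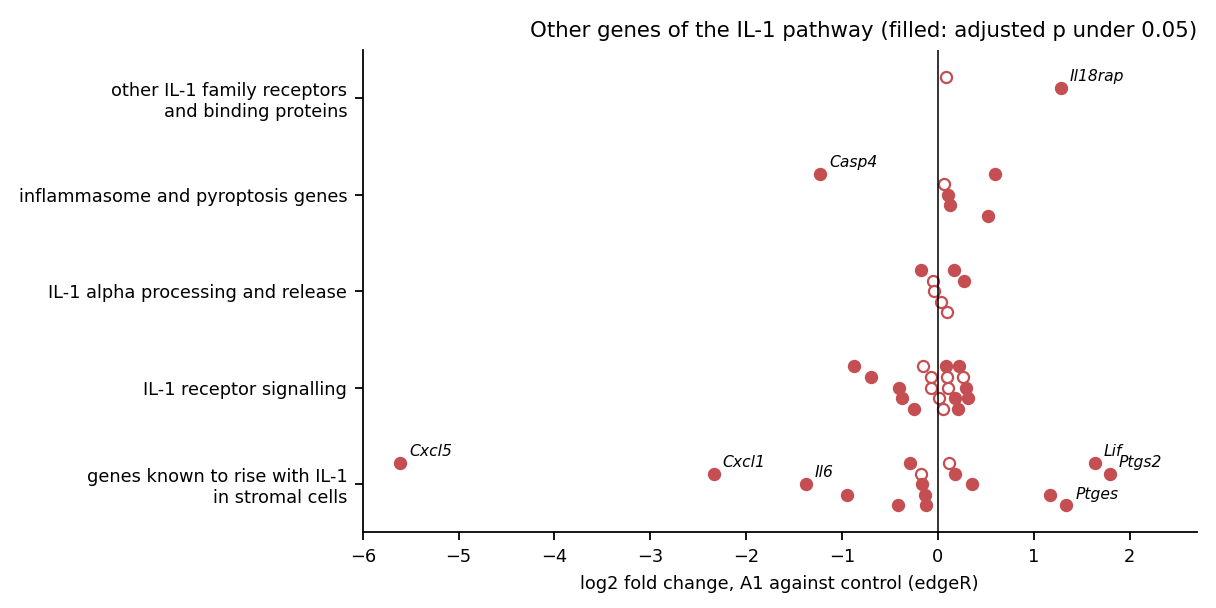
Log2 fold change with A1 against control of the tested genes in 5 lists around the IL-1 family, 1 point a gene, filled where the adjusted p of edgeR was under 0.05. Points are spread vertically for legibility, and genes beyond 1.2 in either direction are named. The genes known to rise with IL-1 extend from Cxcl5 at -5.61, with 1 count over the A1-treated samples, to Ptgs2 at 1.79, whereas the genes of IL-1 alpha processing stay between -0.18 and 0.27.

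Around Il1a, 7 other protein-coding genes lie within 250 kb, and 5 of them were tested. The nearest tested gene, Ckap2l, lies 2.4 kb from Il1a and was at 179.6 CPM in control and 184 CPM in A1-treated samples (0.03, adjusted p 0.50 by edgeR). Slc20a1, the gene of a phosphate transporter at 88.0 kb, rose from 103 to 215 CPM (1.05, SE 0.06, adjusted p 4.66e-12 by edgeR). Polr1b, the gene of an RNA polymerase I subunit at 173.0 kb, rose from 45.1 to 75.9 CPM (0.75, adjusted p 3.98e-10 by edgeR). Ttl was higher by 0.13 and Chchd5 was not called. Gm14023, which overlaps Il1a on the opposite strand, had at most 4 counts in a sample.

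**Figure D5:**
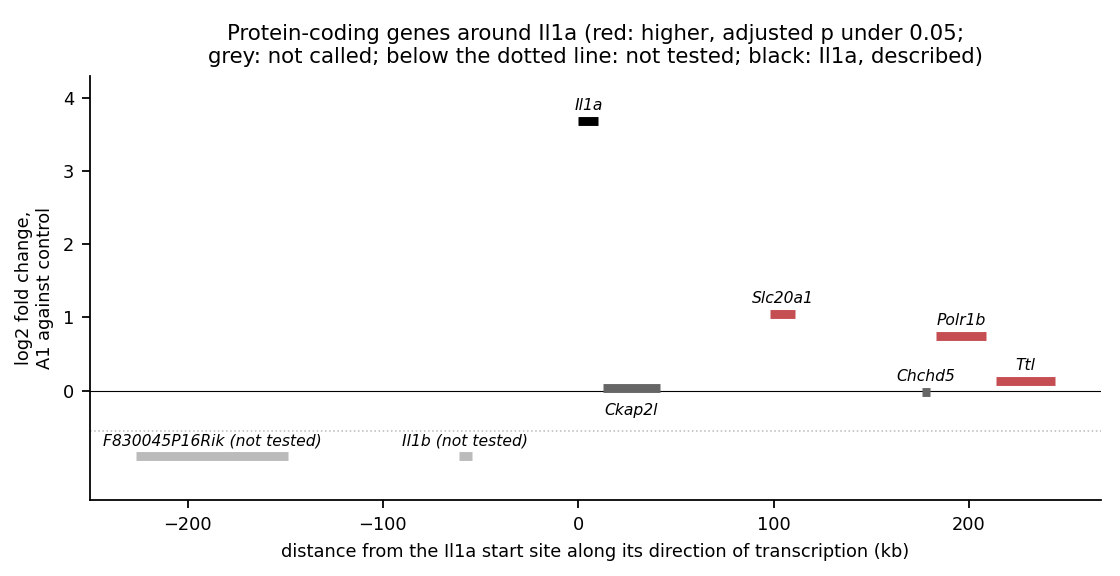
Log2 fold change with A1 against control of the protein-coding genes within 250 kb of Il1a, by distance in kb from its start site along its direction of transcription. Each bar spans a gene. Il1a (black, 3.69) lies between Il1b, which was not tested, and Ckap2l at 0.03, and Slc20a1 at 1.05 and Polr1b at 0.75 are the next highest.

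Among the tested genes whose log2 CPM followed that of Il1a most closely over the 12 samples were Rtkn2 (Pearson's r 0.998), Gcnt4 (0.995), Fgf2 (0.994) and Fkbp5 (0.994). The 12 points share the same libraries and form a low control cluster and a high treated cluster, so that r describes that step. Fgf2, a fibroblast growth factor gene, went from 16.4 ± 2.00 CPM in control to 129 ± 2.85 CPM in A1-treated and 106 ± 6.44 CPM in A1 + OVA-treated samples. Fkbp5 went from 44.4 to 82.8 and 79.9 CPM.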

How the data were processed

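RNA of 12 MSC samples was measured, with groups and replicate numbers taken from the sample titles. The authors prepared poly(A)-selected, strand-specific libraries, aligned the reads to GRCm38 with STAR (2.7) and deposited raw counts per gene from featureCounts (2.0), without normalization. The deposited counts list 55487 genes, 99.53% of which matched the GENCODE M21 annotation of the same build, which gave symbols, biotypes, positions and exon lengths. Newer symbols were matched through RefSeq synonyms.

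Protein-coding genes were filtered with filterByExpr (minimum count 10), scaled by TMM and compared between groups by the quasi-likelihood test of edgeR (version 4.0.16 under R 4.3.3). A single model held the 12 samples, and adjustment followed Benjamini and Hochberg over 11314 genes. DESeq2 (1.42.0) was an alternative. SEs were derived from the log2 fold change and its F statistic, and log2 CPM used a prior count of 2. Counts of replicates differed by 1.92 to 6.87 times the counting variance, so that no pair was a copy. The other alternatives were upper-quartile and RLE factors, 2 other filters, all biotypes, only the groups compared, a replicate block, a fold threshold and each sample left out.

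The members, lists and tests were chosen with earlier results of these data known. Named genes are the 10 members, up to 3 called genes a list with the largest absolute change with A1, the 5 genes most correlated with Il1a and the annotated genes within 250 kb of Il1a. A few others are named to spell out counts of 5 or fewer, or as markers at or near 0 or below the filter, chosen after their values were seen. One selected gene is not reported here. Promoters are RefSeq's.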

Additional observations from a re-analysis of the deposited data

Results flagged for a closer look

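In 24 groups of 4 samples (8 tested genes in 3 groups), the gap of the highest or lowest sample was compared with the whole range of its group, and chance flags about 1 in 20 groups. For Il1r1, control replicate 2 stood at 126 CPM, above the other control samples at 112 to 114 CPM. For the same gene, A1 replicate 2 stood at 109.7 CPM, below the other A1-treated samples at 119 to 120.3 CPM. For Casp1, A1 replicate 4 stood at 13.7 CPM, below the others at 15.4 to 15.6 CPM, and the A1-treated samples were lower than all control samples with or without it.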

How the results depend on the processing

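The fitted log2 fold changes of the members kept their direction under every alternative where a call was made, and 459 of 477 recomputed values kept their side of the threshold (for Il1a against control, which has no test, they moved by less than the spread between replicates). The 16 lost calls were those of Il18 in A1 + OVA against A1, and of Il1rn and Il1rap in A1 + OVA against control. The 2 gained calls were those of Il1rap with A1 without A1 replicate 1 and of Il18 with A1 + OVA without control replicate 2. For the named genes of the lists, 1104 of 1135 recomputed values kept their direction and side of the threshold, and none was reversed. With a log2 fold change of at least 0.5 asked for as well, A1 + OVA against control gave 2 higher and 1 lower member. The 2 higher were Il1a, which has no test, and Il1rl1. At the same threshold A1 + OVA against A1 gave 1 higher and 1 lower. Leaving out 1 sample at a time gave 1 to 2 higher members in A1 + OVA against A1. It gave 3 to 4 higher and 2 to 3 lower in A1 + OVA against control, and 3 to 4 higher with A1. These counts have no share of all tested genes beside them, and nothing is read from them. Deviations of samples with the same replicate number correlated by 0.021 on average (-0.132 to 0.156, 12 pairs), beside -0.007 for different numbers. With 4 samples a group this cannot exclude a weak pairing by number. The replicate block gave 3 higher and 2 lower members with A1, 4 and 3 with A1 + OVA, and 2 and 2 between the treatments. Of all 11314 tested genes, the block called 7134 with A1 (3590 of them higher) and 6580 with A1 + OVA (3379 higher). Between the treatments it called 1488 (724 higher). Nothing is read from the member counts under the block. Il1b, Il33 and Il1a in control samples lay near the limit of 3 counts, which bounds what this depth can show.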
